A study of Mus musculus with 12 samples.

Results

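Doxorubicin (DOX) is an anthracycline used against cancer whose dose is limited by damage to the heart. The genes described here encode what the drug meets in a cell, and were chosen by name: 2 topoisomerase II enzymes that it targets (Top2a, Top2b), 5 ATP-driven pumps linked to its export (Abcb1a, Abcb1b, Abcc1, Abcb8, Abcg2) and 3 enzymes that reduce it (Cbr1, Cbr3, Por). The array's annotation names 9 of these 10 genes, with 17 probe sets, among 18193 genes and 45037 probe sets in all. No probe set is named for Por, the NADPH-cytochrome P450 reductase, which is not analysed here.

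Topoisomerase II cuts both strands of DNA to let another duplex pass, and DOX traps the enzyme on the cut ends. Top2a serves dividing cells and Top2b is the form kept by cells that no longer divide, such as cardiomyocytes. The pumps move DOX outward across the plasma membrane or, for Abcb8, across the inner mitochondrial membrane. Carbonyl reductases turn DOX into the alcohol doxorubicinol, and one-electron reductases such as Por turn it into a semiquinone radical that passes its electron to oxygen.

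Whole hearts of male C57BL/6J mice aged 8 to 10 weeks were hybridised to 12 Affymetrix arrays, 3 for each of 4 groups, and the titles call the arrays of a group biological replicates. The groups are WT no treatment, knockout-labelled no treatment, WT DOX and knockout-labelled DOX. DOX was given as a single intraperitoneal dose of 15 mg/kg, and hearts were taken at day 5. The study's text differs from the labels here: it gives a higher dose, older mice, WT littermates and saline for the mice without DOX. Whether RNA of several hearts was pooled is not stated, so the spread between arrays may hold more or less than that between animals.

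"Knockout-labelled" follows the labels, which name a knockout of CHIP, a ubiquitin ligase and cochaperone encoded by Stub1, whereas the study describes mice with a CHIP transgene expressed in the heart. The brighter Stub1 probe set went against the label. Without DOX, knockout-labelled hearts gave an intensity of 9411 ± 568 (SD, n = 3), against 1826 ± 33.7 (SD, n = 3) for WT. With DOX these were 7427 ± 1656 (SD, n = 3) and 1941 ± 10.2 (SD, n = 3). The other Stub1 probe set, of a type that can bind related transcripts, did not separate the genotypes (1084 in knockout-labelled and 1115 in WT hearts without DOX, 1195 and 1267 with it, averaged log2 difference -0.06, adjusted p = 0.71, limma). Every genotype difference below is knockout-labelled minus WT and carries this doubt. All 8 cardiomyocyte markers were bright, with mean intensities between 3270 and 23722. Array medians lay between 28.9 and 30.4. Knockout-labelled no treatment replicate 3 was the array least like its group mates (r = 0.991 with their mean over all probe sets, against 0.994 to 0.998 on the other arrays).

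The promoters of the genes that the results turn on are shown first, since the topoisomerase II pair and the P-glycoprotein pair each hold 1 gene that changed and 1 that did not pass the test. Each is the 250 bases before the RefSeq start on the assembly GRCm38.p6, written 5′ to 3′ on the strand of the gene, and 8 of the 10 genes have such a window. Capitals mark CCAAT or its complement ATTGG, the motif bound by NF-Y, and TTTGAA or its complement TTCAAA, which holds the core of the element called CHR. Both occur in promoters of cell cycle genes. The windows lie at chr11:99024190-99024439 on the minus strand (Top2a), chr14:16364956-16365205 on the plus strand (Top2b), chr5:8566841-8567090 on the plus strand (Abcb1a) and chr5:8797897-8798146 on the plus strand (Abcb1b).
Top2a: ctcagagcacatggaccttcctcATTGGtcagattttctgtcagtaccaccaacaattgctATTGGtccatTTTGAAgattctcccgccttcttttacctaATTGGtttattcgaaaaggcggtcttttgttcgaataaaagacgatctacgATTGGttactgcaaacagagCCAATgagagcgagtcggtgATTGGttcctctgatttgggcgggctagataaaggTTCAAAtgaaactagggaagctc
Top2b: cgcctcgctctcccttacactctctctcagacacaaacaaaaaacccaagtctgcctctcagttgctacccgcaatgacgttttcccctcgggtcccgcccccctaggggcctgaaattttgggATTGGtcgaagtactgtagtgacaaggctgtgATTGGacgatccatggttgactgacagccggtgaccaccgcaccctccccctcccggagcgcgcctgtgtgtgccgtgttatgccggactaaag
Abcb1a: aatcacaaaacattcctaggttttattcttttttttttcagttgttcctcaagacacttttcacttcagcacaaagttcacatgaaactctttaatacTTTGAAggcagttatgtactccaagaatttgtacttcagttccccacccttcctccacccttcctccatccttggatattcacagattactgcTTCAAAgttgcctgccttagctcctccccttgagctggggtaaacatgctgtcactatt
Abcb1b: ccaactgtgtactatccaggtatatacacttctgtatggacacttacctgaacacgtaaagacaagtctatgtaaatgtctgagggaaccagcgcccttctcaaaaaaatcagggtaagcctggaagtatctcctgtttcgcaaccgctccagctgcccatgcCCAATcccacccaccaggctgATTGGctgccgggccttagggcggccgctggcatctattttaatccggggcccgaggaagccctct

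The Top2a window held 6 copies of CCAAT on either strand, a number reached or passed by 0.0578% of 32851 windows of this length, and 2 copies of TTTGAA. The Top2b window held 2 copies of CCAAT and 0 of TTTGAA. Abcb1a and Abcb1b are neighbours on chromosome 5, with Abcb4 next in line, yet their windows differed: 0 copies of CCAAT and 2 of TTTGAA for Abcb1a, 2 of CCAAT and 0 of TTTGAA for Abcb1b. Of all windows, 33.8% held CCAAT and 16.0% held TTTGAA, while 10.1% held 2 or more of the former and 1.81% held 2 or more of the latter. Matches of this kind are a description of the letters and not of binding.

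After DOX, Abcb1a rose and Top2a fell, while Top2b, Abcb1b, Abcc1, Abcb8, Abcg2, Cbr1 and Cbr3 did not pass the test. Abcb1a was also lower in knockout-labelled than in WT hearts, averaged over both treatments. In the DOX response averaged over both genotypes, 3 of the 17 probe sets were called at an adjusted p under 0.05 by limma, against 9.15% of all probe sets. Both Abcb1a sets were the 2 called higher (4.56% of all) and 1 Top2a set was the 1 called lower (4.59% of all). In the genotype difference averaged over both treatments 2 of 17 were called, against 5.28% of all, and these were the same Abcb1a sets, lower (3.04% of all in that direction). Of probe sets with a mean of at least 100, fitted alone, 28.1% were called in the averaged DOX response and 19.8% in the averaged genotype difference. Of the 8 member sets among them, 3 (both Abcb1a sets and Abcg2) and 2 (both Abcb1a sets) were called. Within single groups of 3 arrays fewer passed: 0 of 17 for DOX in WT (3.06% of all), 2 of 17 for DOX in knockout-labelled hearts (2.2%), 0 of 17 for genotype without DOX (1.81%) and 0 of 17 for genotype after DOX (0.941%). The interaction, which asks whether the response to DOX differs between genotypes, had 0 calls among the 17 and 0% among all probe sets. At an unadjusted p under 0.05 these 5 comparisons had 5, 5, 3, 5 and 2 of the 17, against 18.8%, 16.2%, 14.1%, 15.5% and 8.69% of all probe sets. Log2 differences here are of intensity + 32, which understates the change of dim probe sets.

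**Figure D1:**
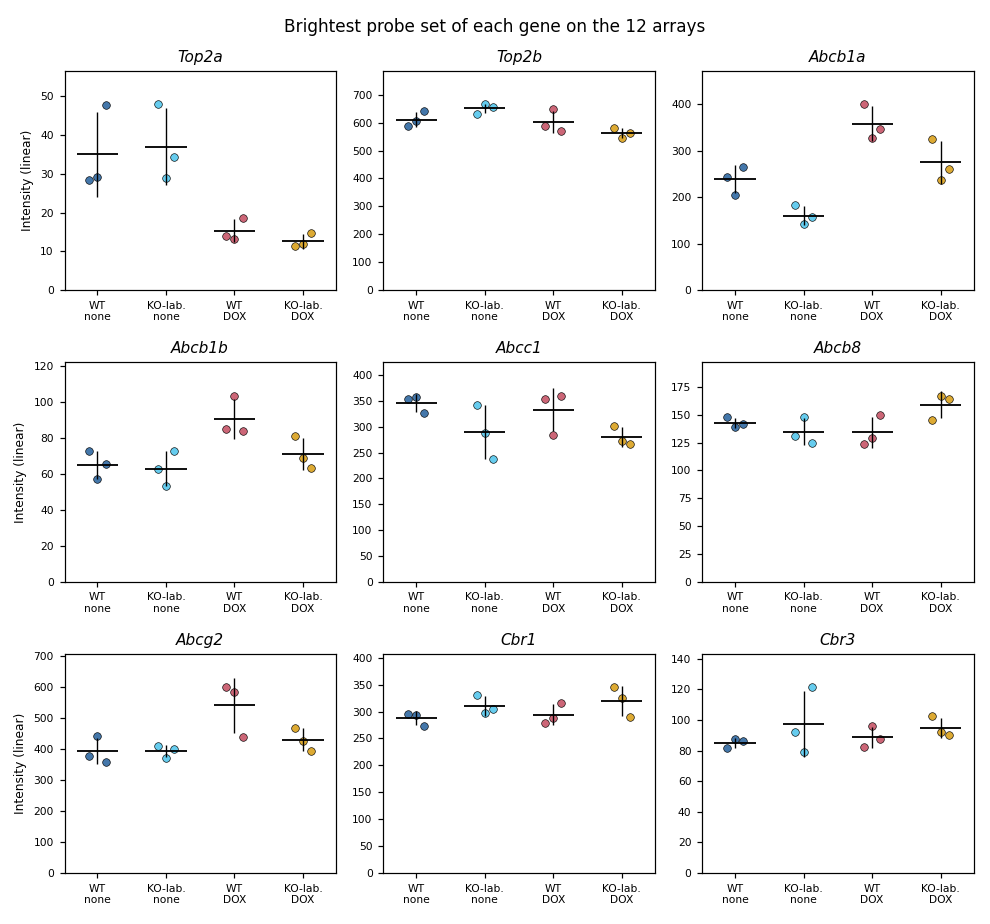
The brightest probe set of each of the 9 genes, as linear intensity (vertical axes, starting at 0) on the 3 arrays of each group (points), with the group mean (horizontal line) and SD (vertical line). KO-lab. stands for knockout-labelled and none for no treatment. The Top2a points after DOX (11.2 to 18.7) lie below all points without it (28.4 to 48.0), and the Abcb1a points with DOX lie above those without it within each genotype.

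Top2a was measured by 3 probe sets, none of them bright. The brightest, 1454694_a_at, read 28.4, 29.1 and 47.7 in WT hearts without DOX and 48.0, 28.8 and 34.3 in knockout-labelled hearts without DOX. After DOX it read 14.0, 13.2 and 18.7 in WT and 11.2, 11.9 and 14.9 in knockout-labelled hearts. All 6 arrays with DOX were below all 6 without, a separation also seen in the lower direction for 1.7% of all probe sets.

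As ratios of mean intensity, DOX over no treatment was 0.435 in WT and 0.342 in knockout-labelled hearts. The averaged log2 difference was -0.56 (standard error 0.09, 95% confidence interval -0.75 to -0.37, adjusted p = 0.0058, limma). It was -0.62 in knockout-labelled hearts (adjusted p = 0.034) and -0.49 in WT (adjusted p = 0.059), and the interaction was -0.13 (95% confidence interval -0.51 to 0.26). Genotypes overlapped at both treatments. Because the intensities are small the size depends on the value added before the log: the averaged difference was -1.29 with 1 added and -0.25 with 100 added, and both were called.

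The other Top2a probe sets were dimmer. The second, 1442454_at, lay between 10.9 and 16.9 on all arrays with an averaged DOX difference of -0.07 (adjusted p = 0.12), and its values correlated with those of the first at r = 0.77 over the 12 arrays. The third, 1427724_at, lay between 9.0 and 14.0 with a difference of -0.01 (adjusted p = 0.95). A call on Top2a therefore comes from 1 of its 3 probe sets.

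Some markers of proliferating cells were also lower after DOX. Of the 12 listed genes 11 were measured, and 8 of these had mean intensities below 32. In the averaged DOX response 5 were called lower and 0 higher: Cdk1 (-0.36, adjusted p = 0.0072), the kinase that drives entry into mitosis, Cenpf (-0.995, adjusted p = 0.027), a kinetochore protein, Ccna2 (-0.34, adjusted p = 0.029) and Ccnb2 (-0.28, adjusted p = 0.031), both cyclins, and Birc5 (-0.10, adjusted p = 0.034), the survivin gene. The other 6 did not pass, among them Bub1, which averaged 6.87 and 7.43 without DOX and 6.73 and 7.73 with it. The median of the 11 was -0.25, against 0.00 over all probe sets. Of all genes, read on their brightest probe set, 7.08% were called lower in this comparison.

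The summed intensity of these 11 markers was 490 to 774 in WT and 307 to 512 in knockout-labelled hearts without DOX. After DOX it was 272 to 295 in WT and 276 to 311 in knockout-labelled hearts, so that the ranges with and without DOX overlapped only at 307 to 311, in the knockout-labelled groups. Most of the change in the WT sum came from Cenpf, whose mean was 410.5 without DOX and 109 with it. The other 10 summed to 200.3 to 270.2 in WT and 211 to 333 in knockout-labelled hearts without DOX, and to 171 to 190.2 and 169.6 to 182 with it. The sum over the 4 erythroid markers measured was lower too: 216 to 1167 in WT and 89.5 to 349 in knockout-labelled hearts without DOX, and 40.1 to 62.1 and 45.8 to 56.3 with it. This sum was mostly Alas2, the heme synthesis enzyme of red cell precursors, which had a mean of 564 of 662 in WT without DOX and was the 1 erythroid marker called. Slc4a1 also had lower means with DOX (11.9 in WT, 12.6 in knockout-labelled hearts) than without (83.1 and 22.2), but was not called. Hba-a1 and Rhag averaged 9.05 and 5.25 over the 12 arrays, below the 32 added before the log2, so a fall could hardly show.

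Some fibroblast markers were lower as well. Of 7 listed and measured, 4 were called lower in the averaged DOX response (Lum, Dpt, Col1a1 and Col1a2), against 7.08% of all genes. Dcn, Pdgfra and Tcf21 were not called, and the median of the 7 was -0.80. In knockout-labelled hearts, where Abcb1a was lower, 3 were called higher on average (Lum, Col1a2 and Col1a1). Of all probe sets, 5.28% were called between genotypes on average, in either direction. The summed level of the 7 fibroblast markers was 10999 to 13145 in WT and 12793 to 18633 in knockout-labelled hearts without DOX, and 9645 to 10880.5 and 11783 to 12663 with it. Dcn made up most of this sum. It averaged 7585 in WT and 8530 in knockout-labelled hearts without DOX, and 8014 and 8269 with it. Without DOX the other 6 summed to 4114 to 4933 in WT and 5948 to 8154 in knockout-labelled hearts. With DOX they summed to 2297 to 2610 and 3229 to 4392. Of 7 smooth muscle and pericyte markers, Acta2 and Cspg4 were called lower in the averaged DOX response, against 7.08% of all genes. Both were called higher in knockout-labelled hearts on average, where 5.28% of all probe sets were called in either direction. The rest were not called in either comparison, and the median genotype difference of the 7 was -0.10. Acta2 averaged 1716 in WT and 9499 in knockout-labelled hearts without DOX, and 1311 and 2513 with it. Rgs5, the brightest, moved the other way in both comparisons. It averaged 8098 in WT and 7300 in knockout-labelled hearts without DOX, and 8918 and 7922 with it. In whole hearts fewer cells of a type and less RNA per cell cannot be told apart. The part of these cell types in the Top2a and Abcb1a results was not tested.

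**Figure D2:**
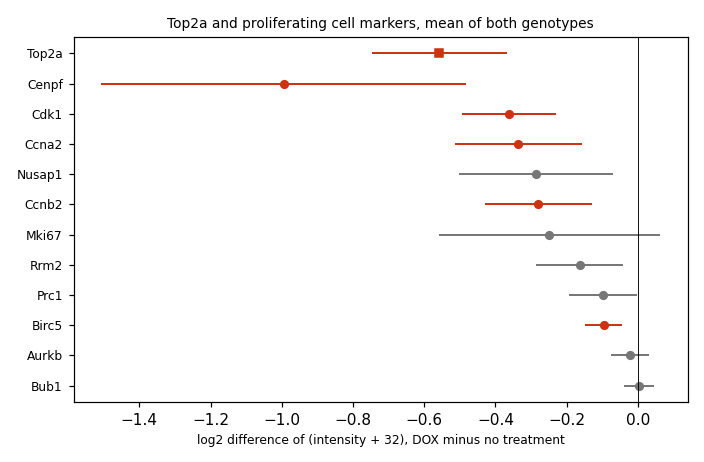
Averaged log2 difference of intensity + 32, DOX minus no treatment (horizontal axis), for Top2a (square, brightest probe set) and 11 markers of proliferating cells (circles), with 95% confidence intervals from limma. Red marks an adjusted p under 0.05: Top2a and 5 of the 11 markers, all to the left of 0.

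Top2b, the form that cardiomyocytes keep, was bright and varied little. Its brightest probe set, 1416731_at, read 587, 605 and 641 in WT and 632, 666 and 655 in knockout-labelled hearts without DOX. With DOX it read 589, 647 and 569.9 in WT and 579, 545 and 563 in knockout-labelled hearts. The WT groups overlapped, whereas the knockout-labelled arrays with DOX all lay below those without.

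The difference was -0.02 in WT (95% confidence interval -0.13 to 0.09) and -0.20 in knockout-labelled hearts (95% confidence interval -0.31 to -0.09, adjusted p = 0.07, limma). The averaged response was -0.11 (adjusted p = 0.079), and the interaction was -0.18 (unadjusted p = 0.028, adjusted p = 0.55). Without WT DOX replicate 2 the averaged response was -0.14 (adjusted p = 0.029), and that in knockout-labelled hearts had an adjusted p of 0.040. The second probe set, 1416732_at, ran from 54.8 to 83.7 with an averaged difference of -0.05 (adjusted p = 0.80), and the third, 1448458_at, from 7.87 to 13.4 with 0.02 (adjusted p = 0.86). The values of the second set were nearly unrelated to those of the brightest (r = 0.15 over the 12 arrays).

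Few genes that act beside topoisomerase II passed the test. Of 9 listed topoisomerases and enzymes that release trapped cleavage complexes, 9 were measured and 0 were called in the averaged DOX response, with a median of 0.05 against 0.00 over all probe sets. In the averaged genotype difference 5.28% of all probe sets were called, and 19.8% of those with a mean of at least 100, when fitted alone. Of the 9 genes, 1 was called. This was Tdp2, the phosphodiesterase that frees topoisomerase II from DNA ends. It was lower in knockout-labelled hearts by log2 -0.26 (adjusted p = 0.015), with group means of 199.8 against 244 in WT without DOX, and 216 against 267 with it.

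Abcb1a encodes 1 of the 2 P-glycoproteins of the mouse, a multidrug efflux pump of the plasma membrane known from capillary endothelium. Its brighter probe set, 1419759_at, read 244, 205 and 265 in WT hearts without DOX and 183, 141 and 156 in knockout-labelled hearts without DOX. With DOX it read 399.6, 327 and 345 in WT and 326, 238 and 260.4 in knockout-labelled hearts. From lowest to highest the groups stood in the order knockout-labelled no treatment, WT no treatment, knockout-labelled DOX and WT DOX. Only the middle pair overlapped.

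The dimmer set, 1419758_at, gave the same order of group means. It read 114, 99.7 and 116 in WT and 82.4, 70.8 and 72.7 in knockout-labelled hearts without DOX, and 164, 171 and 189 in WT and 169.9, 97.1 and 118 in knockout-labelled hearts with DOX. Knockout-labelled DOX replicate 1 stood above its group mates on this set and reached the WT DOX range. The 2 sets followed each other across the 12 arrays at r = 0.96.

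**Figure D3:**
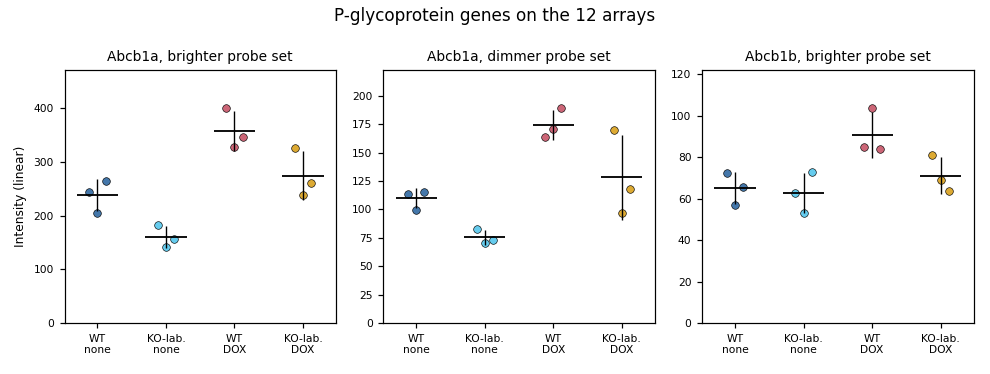
Linear intensity (vertical axes, starting at 0) of the 2 Abcb1a probe sets and the brighter Abcb1b probe set on the 3 arrays of each group (points), with the group mean (horizontal line) and SD (vertical line). Both Abcb1a sets are higher after DOX and lower in the knockout-labelled groups (KO-lab.), while the Abcb1b groups lie between 53.2 and 104.

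The ratio of mean intensity with DOX over no treatment was 1.5 in WT and 1.71 in knockout-labelled hearts on the brighter set, and 1.59 and 1.70 on the dimmer. The averaged log2 difference was 0.60 (standard error 0.09, adjusted p = 0.0054, limma) on the brighter and 0.55 (standard error 0.10, adjusted p = 0.0092) on the dimmer set. Neither call was lost when any 1 of the 12 arrays was left out. In WT alone the differences were 0.53 and 0.54 (adjusted p = 0.056 and 0.062) and in knockout-labelled hearts 0.67 and 0.56 (adjusted p = 0.032 and 0.069). The interaction was 0.14 (95% confidence interval -0.26 to 0.54) on the brighter set.

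Between genotypes, knockout-labelled over WT was 0.672 without DOX and 0.768 with DOX on the brighter Abcb1a set, and 0.687 and 0.736 on the dimmer. The averaged log2 difference was -0.42 (standard error 0.09, adjusted p = 0.027) and -0.39 (standard error 0.10, adjusted p = 0.044). This call was less secure than that of DOX. Without knockout-labelled no treatment replicate 3 the adjusted p was 0.052 and 0.081, and over the 12 fits that each left out 1 array the brighter set passed in 5 and the dimmer in 1. The split of the arrays into genotypes is that of the labels, and what was done to CHIP in the knockout-labelled group is what the brighter Stub1 set puts in doubt.

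Markers of capillary endothelium gave sums that overlapped between all groups: 5338 to 6157 in WT and 5273 to 6029 in knockout-labelled hearts without DOX, and 5534 to 6757 and 4887 to 6143 with it. Of its 10 markers, all measured, 1 was called higher in the averaged DOX response (Flt1, 0.46, adjusted p = 0.019) and 2 lower (Tek, -0.22, adjusted p = 0.023, and Kdr, -0.41, adjusted p = 0.037), all of them receptors of vascular growth factors. Of all genes, read on their brightest probe set, 5.32% were called higher and 7.08% lower in the averaged DOX response. Between genotypes on average, 0 of the 10 markers were called, against 5.28% of all probe sets. Their median genotype difference was -0.13, against 0.00 over all probe sets. At an unadjusted p under 0.05 (limma), 1 of the 10 was lower in knockout-labelled hearts without DOX (14.1% of all probe sets passed) and 0 with it (15.5%). The part of endothelial cells in the Abcb1a result was not tested.

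Abcb1b, the other P-glycoprotein gene, was measured by 1 probe set of use, 1418872_at. It read 72.5, 57.1 and 65.6 in WT and 62.5, 53.2 and 72.7 in knockout-labelled hearts without DOX. With DOX it read 84.8, 104 and 83.7 in WT and 80.8, 68.9 and 63.5 in knockout-labelled hearts. The WT arrays with DOX lay above all others, and the knockout-labelled groups overlapped.

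The log2 difference was 0.34 in WT (95% confidence interval 0.12 to 0.56, adjusted p = 0.094, limma) and 0.12 in knockout-labelled hearts (95% confidence interval -0.10 to 0.34). The averaged response was 0.23 (adjusted p = 0.069) and the interaction -0.22 (95% confidence interval -0.52 to 0.09), so Abcb1b did not pass where Abcb1a did, and the difference between the 2 genes was not tested. The averaged response of Abcb1b was called after quantile normalization (adjusted p = 0.046) and without knockout-labelled no treatment replicate 3 (adjusted p = 0.039). The values of Abcb1b and of the brighter Abcb1a set correlated at r = 0.75 over the 12 arrays, which share the 2 treatments. The second Abcb1b set, 1446701_at, lay between 9.40 and 12.1 on all arrays.

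Abcg2, the breast cancer resistance protein, is a half-transporter that exports several drugs. Its probe set, 1422906_at, read 379, 441 and 359 in WT and 411, 372 and 398 in knockout-labelled hearts without DOX. With DOX it read 599, 585 and 437 in WT and 469, 425 and 395 in knockout-labelled hearts. WT DOX replicates 1 and 2 and knockout-labelled DOX replicate 1 stood above all arrays without DOX, and the other arrays with DOX were within their range.

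The WT response was 0.42 (95% confidence interval 0.16 to 0.68, adjusted p = 0.081, limma), the knockout-labelled response 0.11 (95% confidence interval -0.14 to 0.37) and their difference, the interaction, -0.31 (95% confidence interval -0.67 to 0.06, adjusted p = 0.63). The averaged response was 0.27 (adjusted p = 0.073). Without WT DOX replicate 3 the WT response was 0.56 (adjusted p = 0.016) and the averaged response 0.34 (adjusted p = 0.010). With all arrays, but only probe sets with a mean of at least 100, the adjusted p was 0.036 and 0.032. Abcg2 correlated with Abcb1b at r = 0.75 and with Abcb1a at r = 0.66 over the 12 arrays.

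Abcc1, the multidrug resistance protein that exports drug conjugates with glutathione, was not called after DOX. Its brighter set, 1452233_at, read 353, 358 and 326 in WT and 342, 287 and 238 in knockout-labelled hearts without DOX, and 354, 285 and 360.2 in WT and 302, 272 and 267 in knockout-labelled hearts with it. The averaged DOX difference was -0.04 (95% confidence interval -0.23 to 0.14, limma). Both genotype pairs overlapped, with an averaged difference of -0.23 (95% confidence interval -0.42 to -0.05, unadjusted p = 0.018, adjusted p = 0.15). On the dimmer set, 1421378_s_at, with a range of 24.7 to 49.2, the same difference was -0.16 (unadjusted p = 0.029, adjusted p = 0.20).

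Abcb8, the pump of the inner mitochondrial membrane, had DOX differences of opposite sign in the 2 genotypes, neither past the test. Its brighter set, 1422015_a_at, read 148, 139 and 142 in WT and 131, 148 and 125 in knockout-labelled hearts without DOX, and 124, 129 and 150.1 in WT and 145, 167 and 165 in knockout-labelled hearts with it. Groups overlapped in every pair. The DOX difference was -0.07 in WT (95% confidence interval -0.23 to 0.09) and 0.20 in knockout-labelled hearts (95% confidence interval 0.04 to 0.36, adjusted p = 0.20, limma), and the interaction was 0.27 (unadjusted p = 0.024, adjusted p = 0.53). The dimmer set, 1423713_at, ran from 98.7 to 165, with differences of -0.10 in WT and 0.14 in knockout-labelled hearts and an interaction of 0.24 (unadjusted p = 0.18).

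No other pump was called. Of 12 listed pumps and carriers linked to anthracyclines 11 were measured, and of 7 listed ABC transporters of mitochondria and peroxisomes 5, with 0 calls in any of the 7 comparisons. At an unadjusted p under 0.05 (limma), DOX in WT gave 1 higher and 1 lower of the 11, and 0 higher and 1 lower of the 5. Of all probe sets, 18.8% passed there. DOX in knockout-labelled hearts gave 3 higher and 0 lower of the 11, and 0 of the 5, against 16.2% of all probe sets. Abcb4, which follows Abcb1b on the chromosome and encodes the phospholipid pump of bile, had an averaged DOX difference of 0.25 (adjusted p = 0.074). Xenobiotic receptors that can act on pump genes, such as Nr1i2 (PXR) and Nr1i3 (CAR), gave 0 calls among 6 measured. Nr1i2 lay between 13.1 and 18.9 on all arrays.

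**Figure D4:**
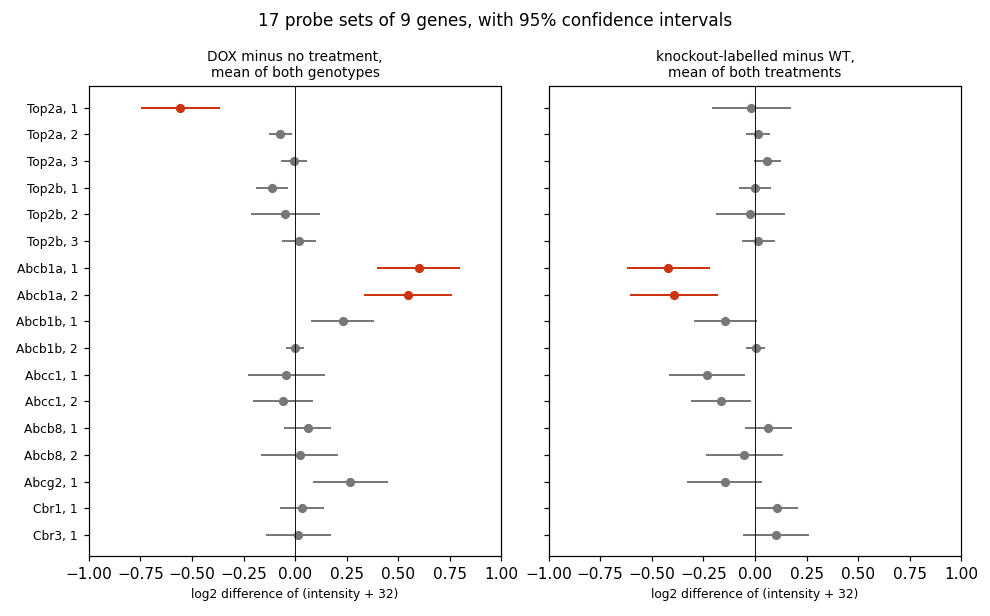
Log2 difference of intensity + 32 (horizontal axes) for the 17 probe sets of the 9 genes, numbered within a gene from the brightest, with 95% confidence intervals from limma. Left, DOX minus no treatment averaged over both genotypes; right, knockout-labelled minus WT averaged over both treatments. Red marks an adjusted p under 0.05: 3 probe sets on the left and 2 on the right.

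Cbr1 and Cbr3, carbonyl reductases that lie next to each other on chromosome 16, were not called in any comparison. Cbr1, on 1460196_at, read 296, 293 and 273 in WT and 331, 297 and 304 in knockout-labelled hearts without DOX, and 278, 288 and 317 in WT and 345, 326 and 290.3 in knockout-labelled hearts with it. Its averaged DOX difference was 0.03 (95% confidence interval -0.07 to 0.14, limma), an interval that leaves out changes beyond 0.14 in either direction. The knockout-labelled arrays lay above WT without DOX and overlapped them with it, and the averaged genotype difference was 0.10 (unadjusted p = 0.051, adjusted p = 0.27).

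Cbr3, on 1427912_at, read 81.5, 87.3 and 86.4 in WT and 91.8, 78.8 and 121 in knockout-labelled hearts without DOX, and 82.6, 96.2 and 87.6 in WT and 102, 92.0 and 90.4 in knockout-labelled hearts with it. The groups overlapped in each comparison of treatment or genotype, and knockout-labelled no treatment replicate 3 was the highest of the 12 arrays. The averaged DOX difference was 0.01 (95% confidence interval -0.14 to 0.17). The values of Cbr1 and Cbr3 correlated at r = 0.37 over the 12 arrays.

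Other carbonyl and quinone reductases were called in both directions. Of 16 listed 15 were measured, and in the averaged DOX response 5 were called higher and 3 lower, with a median of 0.04 against 0.00 over all probe sets. Over all genes, each read on its brightest probe set as in the lists, 12.4% were called in this comparison, 5.32% higher and 7.08% lower. Bright probe sets were called more often: 28.1% of those with a mean of at least 100, when fitted alone. The largest rise among them was that of Aox1, an aldehyde oxidase (log2 1.39, adjusted p = 0.0042). WT hearts had 1271 ± 257 (SD, n = 3) with DOX against 417 ± 48.8 (SD, n = 3) without, and knockout-labelled hearts 1049 ± 332 (SD, n = 3) against 425 ± 147 (SD, n = 3). Dcxr, a carbonyl reductase of the same enzyme superfamily as Cbr1, rose by log2 0.72 (adjusted p = 0.0049), from group means of 287 in WT and 232 in knockout-labelled hearts to 447 and 438. Xdh (1.03, xanthine oxidoreductase), Nqo1 (0.47, a quinone reductase) and Dhrs4 (0.36, a carbonyl reductase) were the other 3 that rose. Of the 5 that rose, Aox1 and Xdh are oxidases kept in this list, and not carbonyl or quinone reductases in the narrow sense.

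Akr1c14, an aldo-keto reductase, fell by 0.67 on the log2 scale (adjusted p = 0.0082), from group means of 79.3 in WT and 82.4 in knockout-labelled hearts to 35.9 and 42.5. Cbr2 (-1.04), a further carbonyl reductase, and Nqo2 (-0.22), a second quinone reductase, also fell. Between genotypes on average, Akr1b8 (0.39) and Nqo2 (0.26) were called higher and Akr7a5 (-0.24) lower in knockout-labelled hearts. In that comparison 5.28% of all probe sets were called, and 19.8% of those with a mean of at least 100, when fitted alone. The Akr7a5 probe set is of a type that can bind related transcripts. Apart from Aox1, Dcxr and Akr1c14, the called genes of this list were named after their values were seen.

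**Figure D5:**
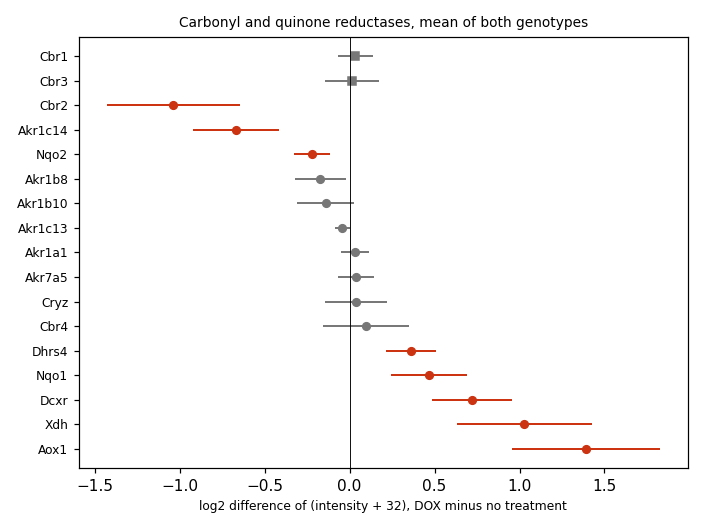
Averaged log2 difference of intensity + 32, DOX minus no treatment (horizontal axis), for Cbr1 and Cbr3 (squares) and 15 genes listed as other carbonyl and quinone reductases (circles), with 95% confidence intervals from limma. The 15 include the oxidases Aox1 and Xdh. Red marks an adjusted p under 0.05: Cbr1 and Cbr3 sit at 0.03 and 0.01 in grey, with 5 red genes to the right and 3 to the left.

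Por itself has no value, but enzymes that share its chemistry or take its electrons were measured. Of 15 listed one-electron reductases and sources of superoxide 14 were measured, with 1 called higher and 2 lower in the averaged DOX response, against the 12.4% of all genes and 28.1% of bright probe sets given above. Ndufv1, the flavin subunit of mitochondrial complex I, rose by log2 0.27 (adjusted p = 0.0075), on a probe set of a type that can bind related transcripts. Cybb, the catalytic subunit of the phagocyte NADPH oxidase, fell by 0.60 on the log2 scale (adjusted p = 0.013), and its partner Cyba fell by 0.34 (adjusted p = 0.049). The summed level of 8 macrophage markers was lower with DOX in WT, with 3092 to 4116 against 5167 to 6638 without it. In knockout-labelled hearts the ranges overlapped, with 4553 to 5553 against 4809.6 to 9822. Of the 8, 4 were called lower and 0 higher in the averaged DOX response, against 7.08% of all genes called lower. Cd163 went the other way, with means of 344 against 295 in WT and 330 against 265 in knockout-labelled hearts. The part of macrophages in the Cybb result was not tested. Between genotypes on average, 1 of the 14 reductases and sources of superoxide was called higher and 1 lower. Of all probe sets 5.28% were called in that comparison, and 19.8% of those with a mean of at least 100, when fitted alone. Cyb5r1, a cytochrome b5 reductase, was higher in knockout-labelled hearts by log2 0.58 (adjusted p = 0.013). Cyba was lower, with means of 314 against 484 in WT without DOX, and 264 against 341 with it.

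Of 12 electron acceptors of Por, all measured, 3 were called higher (5.32% of all genes) and 0 lower in the averaged DOX response, with a median of 0.25 against 0.00. Of bright probe sets, 28.1% were called in either direction, as given above. Cyp2d22, a cytochrome P450, rose by 0.69 (adjusted p = 0.012), Cyb5a, cytochrome b5, by 0.28 (adjusted p = 0.013) and Hmox1, the inducible heme oxygenase, by 0.60 (adjusted p = 0.030). Hmox1 was called in WT (1.09, adjusted p = 0.027) but read 71.2 to 98.7 in knockout-labelled hearts with DOX, against 69.5 to 94.9 without, and the interaction was -0.99 (95% confidence interval -1.62 to -0.35, adjusted p = 0.46). Hmox2, the constitutive form, and Cyp2d22 were lower in knockout-labelled hearts on average (-0.38, adjusted p = 0.011, and -0.72, adjusted p = 0.014).

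Regulators and targets of NRF2, the transcription factor whose program includes Nqo1 and, in many cell types, carbonyl reductases, were measured for 11 of 13 listed genes. In the averaged DOX response 4 were called higher (5.32% of all genes) and 0 lower: Gstm1 (0.56, adjusted p = 0.0016) and Gsta3 (0.47, adjusted p = 0.0033), both glutathione transferases, Gclm (0.96, adjusted p = 0.0022), the modifier subunit of glutamate-cysteine ligase, and Fth1 (0.22, adjusted p = 0.036), ferritin heavy chain. Gclc, the catalytic partner of Gclm, had 0.08 (adjusted p = 0.65), and Nfe2l2, which encodes NRF2, had 0.21 (adjusted p = 0.11). Of bright probe sets, 28.1% were called in this comparison in either direction, as given above. The Gstm1 probe set is of a type that can bind related transcripts, so its reading may hold those of close relatives.

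Among 7908 other genes with a mean intensity of at least 100, those whose pattern over the 12 arrays was most like that of Abcb1a were Dctn1 (r = 0.97), a dynactin subunit, Ppm1b (r = 0.96), a protein phosphatase, and Tlcd5 (r = 0.95). For Top2a they were Fscn1 (r = 0.95), an actin-bundling protein, Ccnd1 (r = 0.95), cyclin D1, and Kctd17 (r = 0.95). For Abcg2 they were Sorbs3 (r = 0.96), Pank2 (r = 0.95) and Gabarapl1 (r = 0.92), and for Abcb1b Susd6 (r = 0.96), Ranbp9 (r = 0.95) and Ppp1r12c (r = 0.94). The highest r was 0.92 for Top2b (Rad21, a cohesin subunit), 0.92 for Abcc1 (Ecsit), 0.94 for Cbr3 (Icam1), 0.86 for Cbr1 (Bri3bp) and 0.85 for Abcb8 (Aplp2). The 12 arrays share 2 treatments and 2 genotypes, and the highest of so many values is large by selection, so these are descriptions.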

How the data were processed

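RNA of whole hearts was extracted with Trizol and hybridised to Affymetrix arrays. The deposited values are linear intensities per probe set, which the authors made with Affymetrix Expression Console. Its version, summary method and scaling are not given in the sources used here, and no detection calls were used. Of 45037 probe sets, 34945 name 1 gene, 932 several and 9160 none in the platform annotation.

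With limma 3.58.1 (R 4.3.3), 4 group means were fitted to log2(intensity + 32) on the 12 arrays. The tests were two-sided, with Benjamini-Hochberg adjustment over all probe sets and the threshold was an adjusted p of 0.05. Differences were taken for DOX within each genotype, genotype within each treatment, the interaction and both averaged terms of the two-way layout, 7 in all. With 3 arrays against 3 an exact permutation test cannot go below p = 0.1 for a single probe set. Genes of several probe sets were shown on all of them if members, and otherwise on the brightest. From each list the counts called were given, with up to 3 called genes by name, smallest p first, and for each member the 3 most correlated genes. Called proliferation, NRF2, reductase, fibroblast and other list genes beyond these 3, uncalled list genes, and sums without the brightest marker were added after their values were seen. The members and lists were chosen with earlier results of these data known.

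Replicate numbers were treated as names only. Deviations of same-numbered arrays from their group means correlated between -0.25 and 0.15 over 18 pairs, with 3 pairs over 0.1. In simulated data of 45037 probe sets, changes were placed only in probe sets with a mean of at least 100. The fit of DOX in WT recovered 43 of 67 probe sets changed 1.5-fold, 59 of 67 changed 2-fold and 66 of 66 changed 4-fold, with 10 other calls. Recovery of dimmer probe sets, such as every Top2a set, was not tested. The alternatives were quantile normalization, 1 or 100 added before the log2, a filter at a mean of 100, a trended and robust variance, only the arrays compared, a replicate block, the methods' t-test and leaving out each array in turn. Promoters and neighbours came from RefSeq tables of GRCm38.p6, used for the reference sequence only. Tables were made with pandas 2.3.3 and plots with matplotlib 3.10.9. Precision is limited by 3 arrays per group.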

Additional observations from a re-analysis of the deposited data

How the results depend on the processing

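In the averaged DOX response, both Abcb1a probe sets and the brightest Top2a probe set were called in every alternative that tested them, and the count of called probe sets ran from 3 to 4 over the alternatives and over the fits leaving out 1 array. The filter at a mean of 100 did not test Top2a. The filter called Abcg2 in its place, quantile normalization and leaving out knockout-labelled no treatment replicate 3 each added Abcb1b, leaving out WT DOX replicate 2 added Top2b and WT DOX replicate 3 Abcg2, and the replicate block gave 4, with Abcg2 added (adjusted p = 0.0499), and changed counts by over 1.5 times only for DOX in WT and genotype without DOX. For DOX in WT, where the count was 0, quantile normalization, the replicate block and a fit of only the arrays compared each gave 1, and 1 added before the log2, the filter at a mean of 100 and the trended variance each gave 3. For DOX in knockout-labelled hearts, where the count was 2, 100 added gave 1, and only the arrays compared and the methods' t-test each gave 0. Leaving out each array in turn gave 0 to 2 for DOX in WT, 0 to 3 for DOX in knockout-labelled hearts, 0 to 1 for genotype without DOX, 0 to 1 for genotype after DOX, 0 to 0 for the interaction and 0 to 2 for the averaged genotype difference. The counts above 0 for DOX in WT came without knockout-labelled no treatment replicate 1, WT DOX replicate 3 and knockout-labelled DOX replicates 1 or 2. Those for genotype after DOX came without WT DOX replicate 3 (Abcg2) and knockout-labelled DOX replicate 1 (Abcb1a), and the latter also gave the 1 for genotype without DOX. The averaged genotype difference kept both Abcb1a sets without knockout-labelled DOX replicate 1 and 1 of them without WT no treatment replicate 2, knockout-labelled no treatment replicate 1 or WT DOX replicates 2 or 3, and it had 0 without any other array. For DOX in knockout-labelled hearts the count was 0 without knockout-labelled no treatment replicate 3 and without knockout-labelled DOX replicates 1 or 3. For genotype without DOX, the filter and the replicate block each gave 1, Abcb1a. For the averaged genotype difference 100 added gave 1, without the dimmer Abcb1a set (adjusted p = 0.063). No difference that had been called changed sign. The causes were not tested. Intensities below 32, as for Top2a, limit how well a size can be read, and 5 of the 17 probe sets had means under that value.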
